A study of Mus musculus with 12 samples.

Results

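The genes described here are 46 DNA replication and S-phase genes, chosen by symbol from a list fixed with earlier results of these data known. They were looked up among the 24421 gene symbols counted in every library. All 46 were present, and 44 had at least 1 read in every library. The libraries came from 6 liver tumors and 6 non-tumoral livers of aged, tumor-bearing mice kept on a standard diet. The p21+/Tert mice (4 livers and 4 tumors) carry 1 allele in which active mouse Tert, the catalytic subunit of telomerase, is expressed from the Cdkn1a (p21) promoter, and the p21+/TertCi mice (2 livers and 2 tumors) carry the same design with a catalytically inactive Tert. Every mouse carried one of these alleles, so no comparison is made here with livers that lack them, and the promoter is active only where p21 is switched on. The tumors are called by the names of the study, in which HCC stands for hepatocellular carcinoma and HCA for hepatocellular adenoma, and T-HCC663 is named as a carcinoma although the histology of the study lists an adenoma in that mouse. Each liver is called by the tumor of its mouse, and values run in 1 order, for p21+/Tert first T-HCC662, then T-HCC663, then T-HCC941, and last T-HCA992, and for p21+/TertCi first TCi-HCC981 and then TCi-HCA984. The liver set beside T-HCC662 is labelled with another animal number, one the study does not list, and was paired with it from the column name inside its deposited file, so every value that rests on that pair carries this limit.

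DNA is copied once per cell cycle. In G1, the origin recognition complex, Cdc6, and Cdt1 load the Mcm2-7 ring onto origins, a step called licensing, and geminin (Gmnn) blocks reloading later. In S phase, Cdc45 and the GINS complex join the ring to make the active helicase, Mcm10 helps to switch it on, and polymerase α-primase, polymerase δ, and polymerase ε copy the strands behind it, with Pcna as the sliding clamp. Ribonucleotide reductase (Rrm1 and Rrm2), thymidylate synthase (Tyms), and thymidine kinase (Tk1) supply the deoxynucleotides, and many of these genes are turned on by E2F transcription factors when a cell leaves quiescence. The adult liver is mostly quiescent and its hepatocytes replicate little unless the organ is injured or transformed.

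Promoter windows were read from RefSeq on GRCm38.p6, from 250 bases before to 50 bases after each annotated start, and 38 of the 46 genes had one (44 windows, since some genes have several starts). Searched on both strands, the E2F letters TTTCCCGC, TTTCGCGC, TTTGCCGC, or TTTGGCGC stood in a window of 16 of the 38 genes (42.1%), against 460 of 10303 tested genes with a window (4.46%) and 2.6% of all 27025 genes with one. Matches can overlap, as a pair does in Mcm6. The 16 genes were Mcm3, Mcm5, Mcm6, Mcm7, Cdc6, Cdt1, Orc1, Gins3, Pola1, Pold1, Pole2, Rfc3, Lig1, Uhrf1, Brca2, and Clspn. The letters CCAAT stood in 23 of the 38 (60.5%, against 42.6% of tested genes). TTTGAA, the core of the element called CHR that many mitotic genes carry, stood in 5 (13.2%, against 14.4%). A match in letters is a description and not a bound site.

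Of the genes whose levels are given below, 3 that were higher and 2 that were lower in tumors are shown, because they differ in these letters. They are Mcm6 (chr1:128359656-128359955, minus strand), Cdc6 (chr11:98907901-98908200, plus strand), Rrm2 (chr12:24708004-24708303, plus strand), Mcm10 (chr2:5012742-5013041, minus strand), and Brca2 (chr5:150522371-150522670, plus strand). Each is written 5′ to 3′ on the strand of the gene with the E2F letters in capitals.
Mcm6: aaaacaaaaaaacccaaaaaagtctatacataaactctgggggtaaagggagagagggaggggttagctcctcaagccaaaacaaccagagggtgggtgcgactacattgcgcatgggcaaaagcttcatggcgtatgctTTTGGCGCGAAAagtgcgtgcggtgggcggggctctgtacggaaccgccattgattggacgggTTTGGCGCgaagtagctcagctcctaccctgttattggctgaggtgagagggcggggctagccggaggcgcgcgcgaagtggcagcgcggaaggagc
Cdc6: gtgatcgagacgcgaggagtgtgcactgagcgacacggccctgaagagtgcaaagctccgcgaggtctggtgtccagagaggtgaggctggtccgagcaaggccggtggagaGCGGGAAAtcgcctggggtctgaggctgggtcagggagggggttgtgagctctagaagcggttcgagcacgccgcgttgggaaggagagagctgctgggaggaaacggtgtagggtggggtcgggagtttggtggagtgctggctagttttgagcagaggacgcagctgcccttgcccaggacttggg
Rrm2: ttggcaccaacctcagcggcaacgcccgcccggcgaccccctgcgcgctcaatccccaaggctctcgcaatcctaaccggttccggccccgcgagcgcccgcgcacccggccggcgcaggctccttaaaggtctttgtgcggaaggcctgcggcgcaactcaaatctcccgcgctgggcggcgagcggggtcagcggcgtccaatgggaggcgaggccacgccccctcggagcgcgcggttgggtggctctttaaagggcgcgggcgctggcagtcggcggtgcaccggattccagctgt
Mcm10: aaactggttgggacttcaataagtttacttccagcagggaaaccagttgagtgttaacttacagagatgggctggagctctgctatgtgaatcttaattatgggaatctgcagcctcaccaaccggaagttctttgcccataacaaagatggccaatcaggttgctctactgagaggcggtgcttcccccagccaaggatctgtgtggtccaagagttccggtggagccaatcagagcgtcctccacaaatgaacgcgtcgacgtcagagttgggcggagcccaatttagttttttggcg
Brca2: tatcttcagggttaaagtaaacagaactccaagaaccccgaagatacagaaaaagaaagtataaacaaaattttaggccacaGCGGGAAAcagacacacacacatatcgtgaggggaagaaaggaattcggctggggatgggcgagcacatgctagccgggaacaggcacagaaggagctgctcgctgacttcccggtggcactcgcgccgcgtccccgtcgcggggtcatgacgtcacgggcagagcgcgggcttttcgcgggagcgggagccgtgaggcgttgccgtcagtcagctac
Mcm6 held 3 matches and Cdc6 held 1. Rrm2 held none in this window and was also higher in tumors. Brca2 held 1 and was lower, and Mcm10 held none. The Mcm10 window ends in all but the last letter of TTTGGCGC, so a match cut by the window edge would be missed. Among the genes with a window, matches stood in 4 of the 6 called higher, 1 of the 2 called lower, and 11 of the remaining 30.

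The livers had 14571716 to 23932529 counted reads and the tumors 17471387 to 26170661, and 1 read was worth 0.0358 to 0.0758 CPM (the count relative to the library size after scaling). No marker of the liver and blood cell lists examined was at 0 in all 12 libraries. The 7 hepatocyte markers measured summed to 35800 to 60100 CPM in livers and 23600 to 100000 CPM in tumors, and none of them was called between tissues. The macrophage sum was 1680 CPM in the liver of TCi-HCC981 and 1220 CPM in that tumor, against 135 to 686 CPM in the 10 other libraries. The bile duct sum was 50.9 to 134 CPM in livers and 17.8 to 1060 CPM in tumors, highest in T-HCA992. The B and plasma cell sum was 140 CPM in the liver of T-HCA992 and 3.15 to 33.4 CPM elsewhere. The T cell sum was 0.775 to 10.5 CPM in livers and 2.21 to 29.7 CPM in tumors. Endothelial genes summed to 53.1 to 165 CPM and 50.8 to 256 CPM, stellate and fibroblast genes to 45.9 to 242 CPM and 27.4 to 391 CPM, and erythroid genes to 259 to 802 CPM and 199 to 1650 CPM. Between tissues, 1 of 6 endothelial genes was called higher and no marker of the other non-hepatocyte lists was called. The part of these cell types in the results below was not tested. Tert itself was counted in every library, at 10.5 to 17.3 CPM in livers and 4.69 to 26.1 CPM in tumors, and counts at this gene do not separate the transgene from the native allele. Cdkn1a ranged from 1.62 to 51.1 CPM in livers and from 32.9 to 81 CPM in tumors (log2 fold change 1.85 ± 0.70 SE, edgeR adjusted p = 0.111).

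The first comparison asked whether the replication genes differed between the 6 tumors and the 6 livers. Of the 45 genes that passed the filter on low counts, 6 were higher in tumors (Mcm2, Mcm6, Cdc6, Lig1, Rrm2, and Uhrf1), 2 were lower (Mcm10 and Brca2), and 37 were not called by edgeR at an adjusted p of 0.05. The background over all 13822 genes tested was 6.77% called higher and 3.91% called lower, against 13.3% and 4.44% of the replication genes. The fold change was above 0 for 35 of the 45 (77.8%, against 50.9% of all genes), and the median log2 fold change was 0.54, against 0.01 for all genes. A further 11 genes had an unadjusted p under 0.05 without passing the adjustment, all of them higher (Mcm3, Mcm4, Mcm5, Cdc45, Gins3, Rrm1, Tyms, Chaf1a, Brca1, Clspn, and E2f1). Together with the called genes, 37.8% of the 45 had an unadjusted p under 0.05 and were higher, against 14.4% of all genes, and 4.44% were lower, against 11.7%. In bulk tissue, more replicating cells and more RNA per replicating cell cannot be told apart. Orc1 was left out by the filter, with 1 to 8 reads in 10 libraries.

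**Figure D1:**
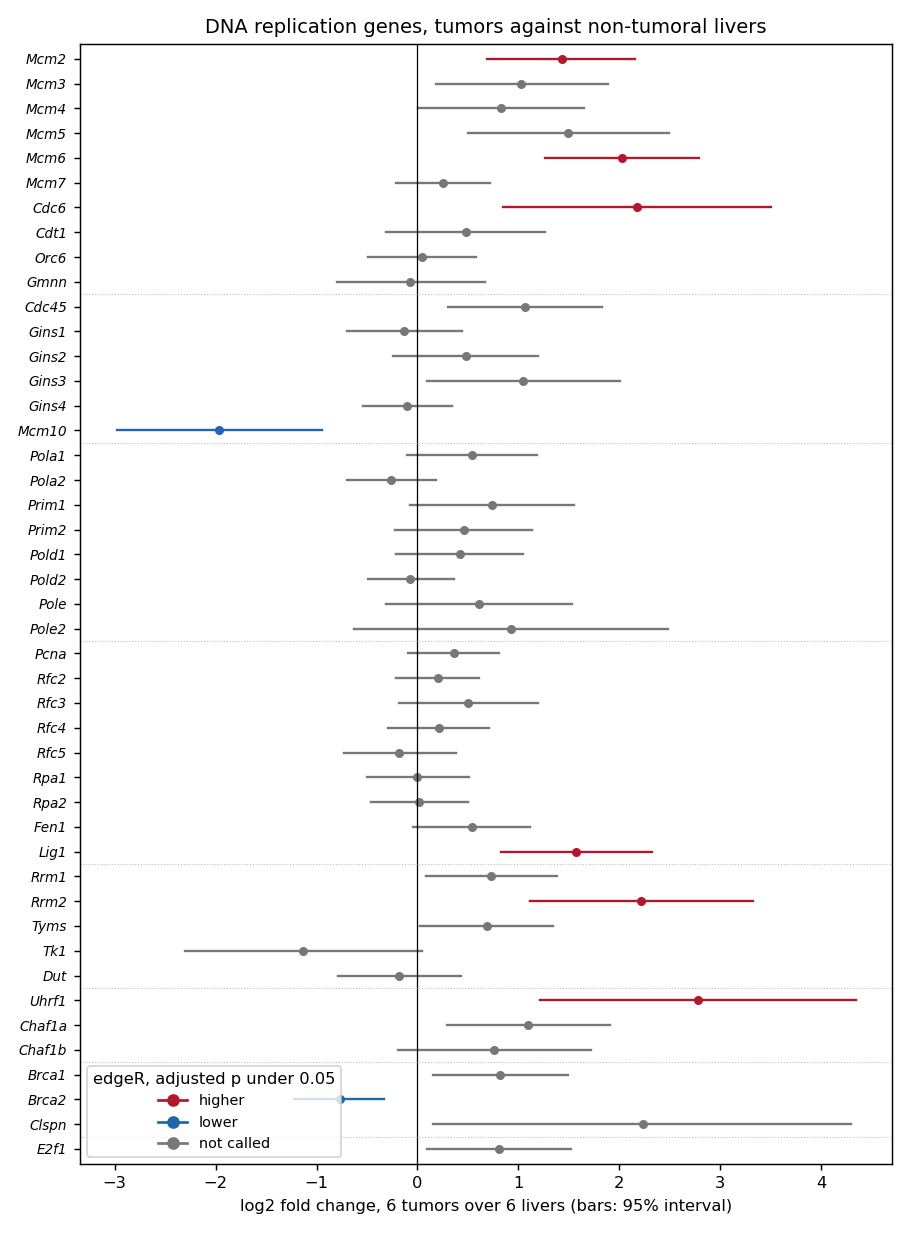
Log2 fold change of the 45 tested replication genes in 6 tumors over 6 livers (horizontal axis), with 95% intervals as bars, grouped from top to bottom by role (licensing, helicase activation, polymerases and primase, clamp and lagging strand, nucleotide supply, chromatin copying, fork protection, and E2f1). The 6 genes in red were called higher and the 2 in blue lower. Mcm10 lies at -1.97 while most others lie above 0.

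With the mouse as a replicate block over all 6 pairs, 7 genes were higher and 1 lower, with Mcm5 (adjusted p = 0.0435) and E2f1 (adjusted p = 0.041) gained and Uhrf1 (adjusted p = 0.0562) and Brca2 (adjusted p = 0.0535) lost by edgeR. With the block over the 5 pairs given by the labels, 3 genes were higher (Mcm2, Mcm6, and Lig1) and 1 lower (Mcm10). The total of 8 became 5 without the liver of T-HCC662, of T-HCC663, or of T-HCC941, and without T-HCA992, and it became 12 without TCi-HCA984. Mcm6, Lig1, Rrm2, and Mcm10 were called in 12 of 12 fits that left out 1 library, Mcm2 in 11, Uhrf1 in 7, Brca2 in 6, and Cdc6 in 4. The share of all genes called in these fits is not given here. A change in these counts is therefore not shown to be particular to the replication genes.

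The licensing genes held 3 of the 6 higher calls, and no licensing gene was lower. Mcm6, a subunit of the ring (chr1:128331590-128359664, minus strand), stood at 2.12, 3.55, 4.4, and 5.1 CPM in the p21+/Tert livers, and at 5.12 and 3.59 CPM in the p21+/TertCi livers. It stood at 15.9, 26.1, 11.7, and 23.9 CPM in the p21+/Tert tumors, and at 15.2 and 5.22 CPM in the p21+/TertCi tumors. Every tumor lay above every liver, although TCi-HCA984 did so narrowly, and the log2 fold change was 2.03 ± 0.35 SE (4.07-fold, adjusted p = 0.00418). A near-identical pseudogene, Gm15654, is annotated elsewhere, and counts may be split between the copies.

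Mcm2, another subunit of the ring, ranged from 1.74 to 8.21 CPM in livers with a median of 4.27, and from 8.46 to 18.1 CPM in tumors with a median of 13.4. It was the other gene without overlap between tissues (2.69-fold higher, log2 1.43 ± 0.34 SE, adjusted p = 0.0189), and its lowest tumor, TCi-HCA984, was close to its own liver at 8 CPM. Thus 2 of 45 replication genes had all tumors above all livers, against 2.93% of all genes, and 0 had all tumors below all livers, against 2.18%. The other ring subunits were spread: Mcm5 had a log2 fold change of 1.49 ± 0.46 SE, Mcm3 1.03 ± 0.40, Mcm4 0.83 ± 0.38, and Mcm7 0.25 ± 0.22, and none of these passed the adjustment. Mcm7, of which 12.6% of the exon bases overlap other genes, ranged from 11.4 to 17.7 CPM in livers and from 10.4 to 25.8 CPM in tumors. A near-identical copy of Mcm7, Gm5487, is annotated elsewhere.

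Cdc6, which helps to load the ring, had few reads in livers. It had 3 to 9 reads in 5 of the livers and stood at 0.194 to 0.714 CPM over the 6, with a median of 0.295, against 0.227 to 3.62 CPM with a median of 1.8 in tumors (log2 2.18 ± 0.61 SE, adjusted p = 0.0382). TCi-HCA984, with 4 reads, and T-HCC941, with 11 reads, lay within the range of the livers. Cdt1, the partner of Cdc6 in loading, had a log2 fold change of 0.48 ± 0.36, Orc6 0.04 ± 0.25, and Gmnn -0.07 ± 0.34. Orc6, a subunit of the origin recognition complex, ranged from 4.07 to 7.14 CPM in livers and from 3.24 to 8.02 CPM in tumors, fully overlapping. Over the 10 licensing genes tested, the median log2 fold change was 0.93.

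Among the 6 genes of helicase activation, Mcm10 fell while Cdc45 and Gins3 had positive values. Mcm10 (chr2:4989714-5012791, minus strand) stood at 193, 149, 130, and 63.4 CPM in the p21+/Tert livers, and at 57.8 and 88.5 CPM in the p21+/TertCi livers. In the tumors of the same mice it stood at 67.3, 35.3, 16.6, and 13.6 CPM, and at 9.14 and 33.7 CPM. Each tumor lay below its own liver, and the tissues overlapped because T-HCC662 stood above the livers of TCi-HCC981 and T-HCA992. The log2 fold change was -1.97 ± 0.47 SE (adjusted p = 0.019). It was the only one of the 45 genes lower in 6 of 6 mice, against 11.5% of all genes, while 10 were higher in 6 of 6 (Mcm2, Mcm6, Cdc6, Gins3, Pole2, Pcna, Lig1, Brca1, Clspn, and E2f1), against 11% of all genes. Its exons overlapped no other annotated exon and no near-identical copy was found. Its neighbors on the chromosome, Optn (7850 bases away, same strand) and Phyh (50983 bases away, opposite strand), were chosen for comparison with results known. Phyh had 1910, 1460, 1490, 1420, 1360, and 1310 CPM in the livers and 2230, 1190, 335, 378, 439, and 968 CPM in the tumors. Optn had 142, 101, 122, 92.4, 120, and 140 CPM in the livers and 153, 125, 55.2, 61.5, 44.8, and 118 CPM in the tumors. Neither was called (log2 -0.71 ± 0.43, adjusted p = 0.329 for Phyh, and -0.37 ± 0.29, adjusted p = 0.451 for Optn), but for all these genes T-HCC662 was highest of the tumors, and T-HCC941, T-HCA992, and TCi-HCC981 were the lowest. The part of the neighbors in the Mcm10 counts was not tested.

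Mcm10 also weighed heavily in the summed level of the set. Per kilobase of exon, Mcm10 had a mean of 14.8 CPM per kilobase over the 6 livers, against 11.5 for Gins4 and 7.29 for Pold2, and 3.81 in tumors, where it ranked 11. It ranked 1 in 4 of the 6 livers, with Gins4 ahead of it in those of T-HCA992 and TCi-HCC981. It made up 15.5 to 36.6% of the summed CPM of the 46 genes in livers and 2.41 to 12.8% in tumors. The sum over all 46 genes was 318 to 527 CPM in livers and 264 to 563 CPM in tumors. With Mcm10 and Tk1 left out, a choice made after their values were seen, it was 227 to 320 CPM in livers and 452, 498, 308, 537, 323, and 224 CPM in the tumors. T-HCC941 then lay among the livers, the other p21+/Tert tumors and TCi-HCC981 exceeded the highest liver, and TCi-HCA984 lay just below the lowest.

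Cdc45 (log2 1.07 ± 0.36 SE, adjusted p = 0.0727) and Gins3 (1.05 ± 0.45, adjusted p = 0.154) were not called in this comparison. Gins1, Gins2, and Gins4, the remaining GINS subunits, had values of -0.13 ± 0.27, 0.48 ± 0.33, and -0.10 ± 0.20. Gins1 ranged from 3.6 to 6.67 CPM in livers and from 2.44 to 6.31 CPM in tumors. Gins4 stood at 13 to 19.3 CPM in livers and 8.48 to 19.7 CPM in tumors, and the tumor below all livers was T-HCC941. Gins2 shared 67.3% of its exon bases with Gse1, so its counts are uncertain.

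None of the 8 polymerase and primase genes was called, with none at an unadjusted p under 0.05 in either direction. Their median log2 fold change was 0.50, and the values ran from -0.26 ± 0.20 for Pola2, the regulatory subunit of polymerase α, to 0.93 ± 0.72 for Pole2, a subunit of polymerase ε. Prim1, the catalytic subunit of primase, had the smallest p of the group. It ranged from 1.62 to 3.81 CPM in livers with a median of 2.04, and from 1.94 to 6.7 CPM in tumors with a median of 4.36 (log2 0.74 ± 0.38, adjusted p = 0.232). Pold2, the accessory subunit of polymerase δ, had the largest p, at 11.4 to 18.2 CPM in livers and 9.2 to 18.9 CPM in tumors (-0.07 ± 0.20, 95% interval -0.49 to 0.36). Pole2 was at 0 reads in the livers of T-HCC941 and T-HCC662, which allows up to 0.227 and 0.212 CPM for counting error alone.

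Lig1 was the gene of the lagging strand that rose. It encodes the ligase that seals Okazaki fragments and stood at 1.98, 4.19, 3.79, and 5.05 CPM in the p21+/Tert livers and at 4.03 and 2.08 CPM in the p21+/TertCi livers. Tumors stood at 12.4, 15.8, 7.67, and 13.1 CPM in p21+/Tert mice, and at 10.5 and 3.81 CPM in p21+/TertCi mice. Only TCi-HCA984 fell within the range of the livers, and the log2 fold change was 1.57 ± 0.34 SE (2.98-fold, adjusted p = 0.0121).

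Pcna, the clamp itself, was not called. It ranged from 11.2 to 17.9 CPM in livers with a median of 14.5, and from 11.8 to 24.7 CPM in tumors with a median of 20.1, and it was higher than the own liver in 6 of 6 mice (log2 0.36 ± 0.21, adjusted p = 0.293). The loader subunits Rfc2, Rfc3, Rfc4, and Rfc5 lay between -0.18 and 0.50 on the log2 scale. Near-identical copies are annotated elsewhere for Pcna (Pcna-ps2) and Rfc5 (Gm12870). Rpa1, the large subunit of the protein that coats single-stranded DNA, had a log2 fold change of 0.00 (95% interval -0.50 to 0.51), with 19.4 to 31.8 CPM in livers and 15.6 to 39.8 CPM in tumors. Rpa2 had 0.02 ± 0.22. Fen1, the flap nuclease, had 0.54 ± 0.27, and 84.2% of its exon bases overlapped another gene.

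The nucleotide supply genes had values in both directions, and 1 of the 5 was called. Rrm2, the regulated subunit of ribonucleotide reductase (chr12:24708241-24714146, plus strand), stood at 3.53, 6.71, 3.56, and 5.47 CPM in the p21+/Tert livers and at 5.38 and 3.68 CPM in the p21+/TertCi livers. Its tumors stood at 21.4, 20, 15.9, and 60.3 CPM in p21+/Tert mice, and at 10.5 and 3.58 CPM in p21+/TertCi mice. All tumors but TCi-HCA984 lay above all livers, and that one lay at the bottom of their range, with a log2 fold change of 2.21 ± 0.51 SE (4.63-fold, adjusted p = 0.0163 by edgeR, and adjusted p = 0.0627 with the mouse as a block over the 5 pairs given by the labels). Rrm2 was the replication gene with the second highest mean per kilobase in tumors, at 7.92 CPM per kilobase, and ranked 19 in livers with 1.7. Without T-HCA992 it had 5.15 CPM per kilobase in tumors and ranked 5, and the log2 fold change was 1.58 (adjusted p = 0.0274). A near-identical copy, Gm48455, is annotated elsewhere. Rrm1, its large partner subunit, had a smaller value of 0.73 ± 0.30, and Tyms had 0.69 ± 0.30. Tyms shared near-identical stretches with 13 other annotated genes, among them Tyms-ps, which was also counted.

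Tk1, the salvage kinase for thymidine, went the other way in 5 of 6 mice without being called. It stood at 59.1, 59.2, 30.1, and 19.4 CPM in the p21+/Tert livers, and at 31.2 and 2.47 CPM in the p21+/TertCi livers. Tumors stood at 21, 24.2, 12.5, and 13 CPM, and at 15.6 and 6.25 CPM (log2 -1.13 ± 0.54 SE, adjusted p = 0.207). The liver of TCi-HCA984 stood far below the other livers, and its tumor was the one that exceeded its liver. Without that liver Tk1 was called lower (log2 -1.38, adjusted p = 0.0331). Afmid, a gene whose exons overlap 1.6% of the exon bases of Tk1, had 272, 254, 127, 174, 204, and 20.6 CPM in the same order of livers and 92.3, 116, 80.4, 52.6, 111, and 61.7 CPM in the tumors. It too was lowest in the liver of TCi-HCA984, and its part in the Tk1 counts was not tested. Dut, which removes dUTP, ranged from 7.66 to 16.9 CPM in livers and from 5.28 to 16.2 CPM in tumors (-0.18 ± 0.28).

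**Figure D2:**
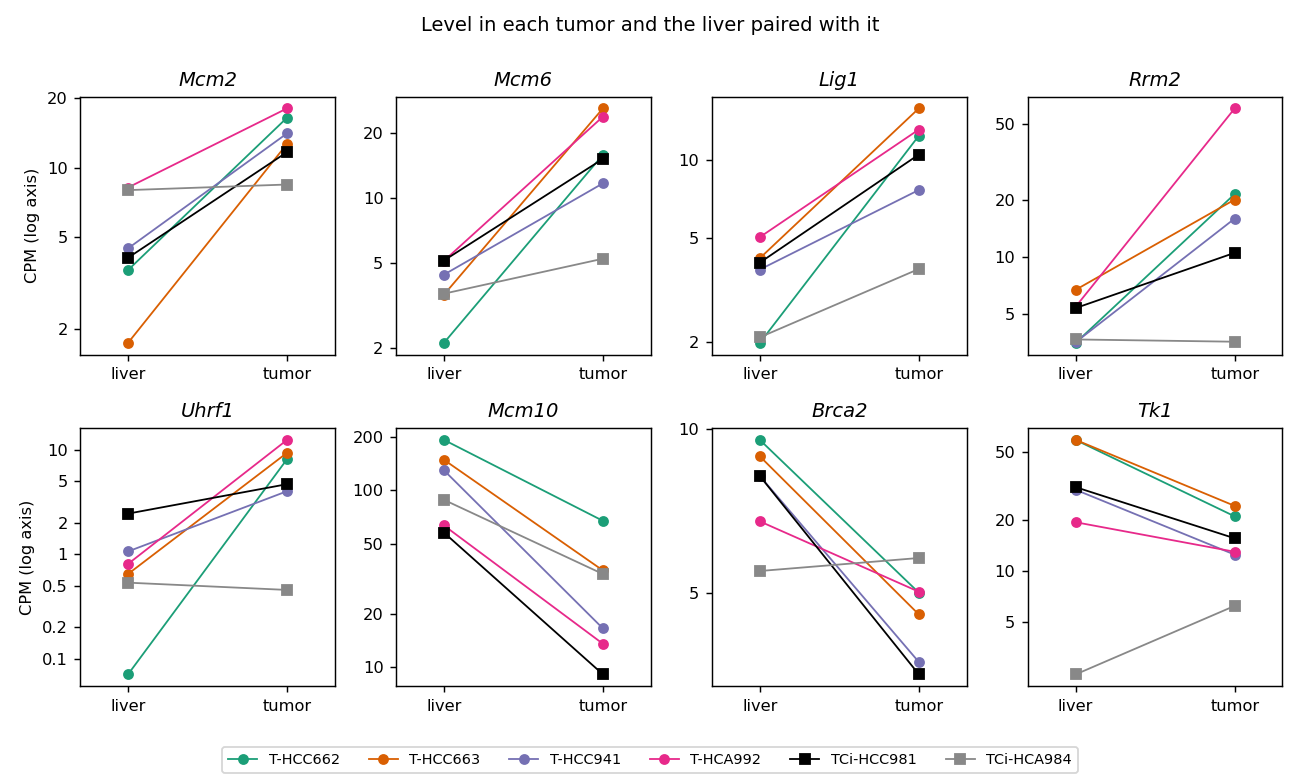
CPM on a log axis for 8 replication genes in each liver (left of each panel) and the tumor set beside it (right), with 1 line per mouse, circles for p21+/Tert, and squares for p21+/TertCi. Mcm2 and Mcm6 rise in 6 of 6 mice and Mcm10 falls in 6 of 6, while TCi-HCA984 (grey) is nearly flat for Mcm2 and Rrm2 and runs against the other mice for Uhrf1, Brca2, and Tk1.

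Among the genes that copy chromatin, Uhrf1 had the largest fold change of the 45 genes. It recruits the maintenance DNA methyltransferase to newly made DNA. Livers stood at 0.0706 CPM (1 read), 0.645, 1.06, and 0.805 CPM in the p21+/Tert mice, and at 2.44 and 0.533 CPM in the p21+/TertCi mice. The p21+/Tert tumors stood at 8.11, 9.33, 4, and 12.4 CPM, and the p21+/TertCi tumors at 4.67 and 0.454 CPM. All tumors but TCi-HCA984 lay above all livers, and that one, with 8 reads, lay among the lowest livers. A near-identical copy, Gm5648, is annotated elsewhere. The log2 fold change was 2.78 ± 0.72 SE (adjusted p = 0.0282), a call that was lost with the mouse as a block over 6 pairs (adjusted p = 0.0562).

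Chaf1a and Chaf1b, subunits of the assembly factor that puts histones on new DNA, had 1.10 ± 0.38 and 0.76 ± 0.44. Chaf1b ranged from 1.16 to 4.07 CPM in livers, and 5 tumors lay between 4 and 5.61 CPM while TCi-HCA984 was at 0.682 CPM. Ubxn6 overlapped 52.5% of the exon bases of Chaf1a.

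Of the 3 genes of fork protection and repair, Brca2 was lower in tumors. Brca2, which protects stalled forks, stood at 9.54, 8.9, 8.19, and 6.76 CPM in the p21+/Tert livers and at 8.19 and 5.48 CPM in the p21+/TertCi livers. Its tumors stood at 5, 4.56, 3.73, and 5.02 CPM, and at 3.54 and 5.79 CPM. The highest tumor and the lowest liver both came from the mouse of TCi-HCA984, and the other 5 tumors lay below all livers (log2 -0.77 ± 0.21 SE, adjusted p = 0.0313). The call was lost with either block (adjusted p = 0.0535 over 6 pairs and 0.104 over 5). A near-identical copy of Brca2, 2010109I03Rik, is annotated elsewhere and was also counted. Brca1 had a value in the opposite direction, 0.82 ± 0.31, and was higher than the own liver in 6 of 6 mice.

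Clspn, the adaptor of the fork checkpoint, had 0 to 9 reads in 5 of the livers and 0 in those of TCi-HCA984 and T-HCC662. It stood at 0 to 0.882 CPM in livers and 0.0568 to 5.66 CPM in tumors, and T-HCA992 alone exceeded 1.59 CPM (log2 2.23 ± 0.96, adjusted p = 0.16, and log2 1.31 without that tumor). E2f1, the transcription factor in the list, stood at 6.57, 4.06, 6.45, 8.53, 3.07, and 3.64 CPM in the livers, and at 13.5, 8.76, 9.23, 13.4, 8.06, and 3.86 CPM in their tumors. It was higher in 6 of 6 tumors than in the own liver (log2 0.81 ± 0.33, adjusted p = 0.139), and the call was gained with the mouse as a block over 6 pairs (adjusted p = 0.041).

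Each tumor was then set against its own liver on the scale of log2(CPM + 1), with no test since 1 library stands on each side. T-HCA992 had 18 of the 45 genes at least 2-fold above its liver (40%, against 9.16% of all genes tested), and 1 at least 2-fold below (7.13% of all genes). T-HCC663 had 16 above (35.6%, against 10.9%) and 2 below (7.91% of all genes). T-HCC662 had 13 above (28.9%, against 9.93%) and 2 below (7.37% of all genes), with the limit on its liver given above. In these 3 tumors 38 or 39 of the 45 genes had positive differences, against 49.2 to 50.4% of all genes, and the median differences were 0.62, 0.61, and 0.81, against -0.01 to 0.01 for all genes.

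The remaining 3 tumors stood near the background of all genes or under it. T-HCC941 had 4 above (8.89%, against 14.7%) and 4 below (against 9.52%), with a median of 0.02, and 7 above with a pseudocount of 0.1 CPM. TCi-HCC981 had 4 above (against 9.78%) and 2 below (against 8.57%), with a median of 0.20. TCi-HCA984 had 1 above, which was Tk1 (2.22%, against 8.18%), and 1 below, which was Mcm10 (against 3.46%), with a median of 0.02. TCi-HCA984 had the lowest level of the 6 tumors for 28 of the 46 genes (Orc1 included), whereas T-HCC663 and T-HCA992 had the highest for 18 and 16. For T-HCC662 the number above was 20 by library size alone, where the median of all genes shifted by 0.20 on the log2 scale, and 20 with a pseudocount of 0.1 CPM.

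**Figure D3:**
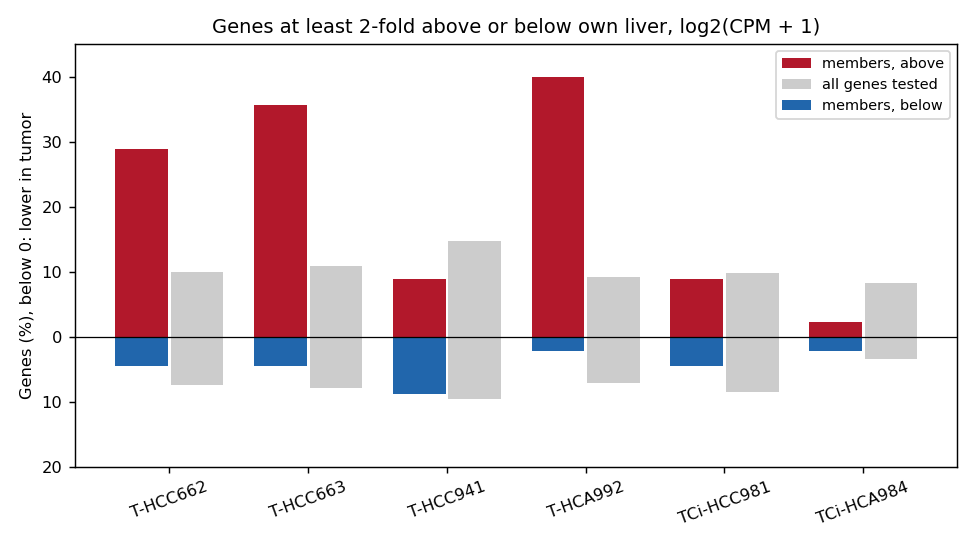
Share of the 45 replication genes (colored bars) and of all 13822 genes tested (grey bars) at least 2-fold above (upward) or below (downward) the own liver in each tumor, on log2(CPM + 1). Upward, the colored bars rise to 40%, 35.6%, and 28.9% in T-HCA992, T-HCC663, and T-HCC662 and stay under the grey bars in the other 3 tumors.

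By role, the tumors ranked differently. Among licensing genes the median difference was largest in T-HCC663 (1.44) and T-HCC662 (1.06), against 0.95 in T-HCA992, 0.55 in T-HCC941, 0.28 in TCi-HCC981, and 0.06 in TCi-HCA984. For nucleotide supply it was largest in T-HCA992 (1.40), against 0.81 in T-HCC662 and 0.61 in T-HCC663. For the 3 genes of fork protection it was again largest in T-HCA992 (1.51), with Clspn (2.33) and Brca1 (1.51). T-HCC941 had a negative median for helicase activation (-0.30) and for the clamp and lagging strand (-0.29), with Gmnn (-1.01) and Gins4 (-1.10) both at least 2-fold below its liver, yet its Rrm2 was 1.89 above. These are medians over 3 to 10 genes in 1 tumor each and were not tested.

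**Figure D4:**
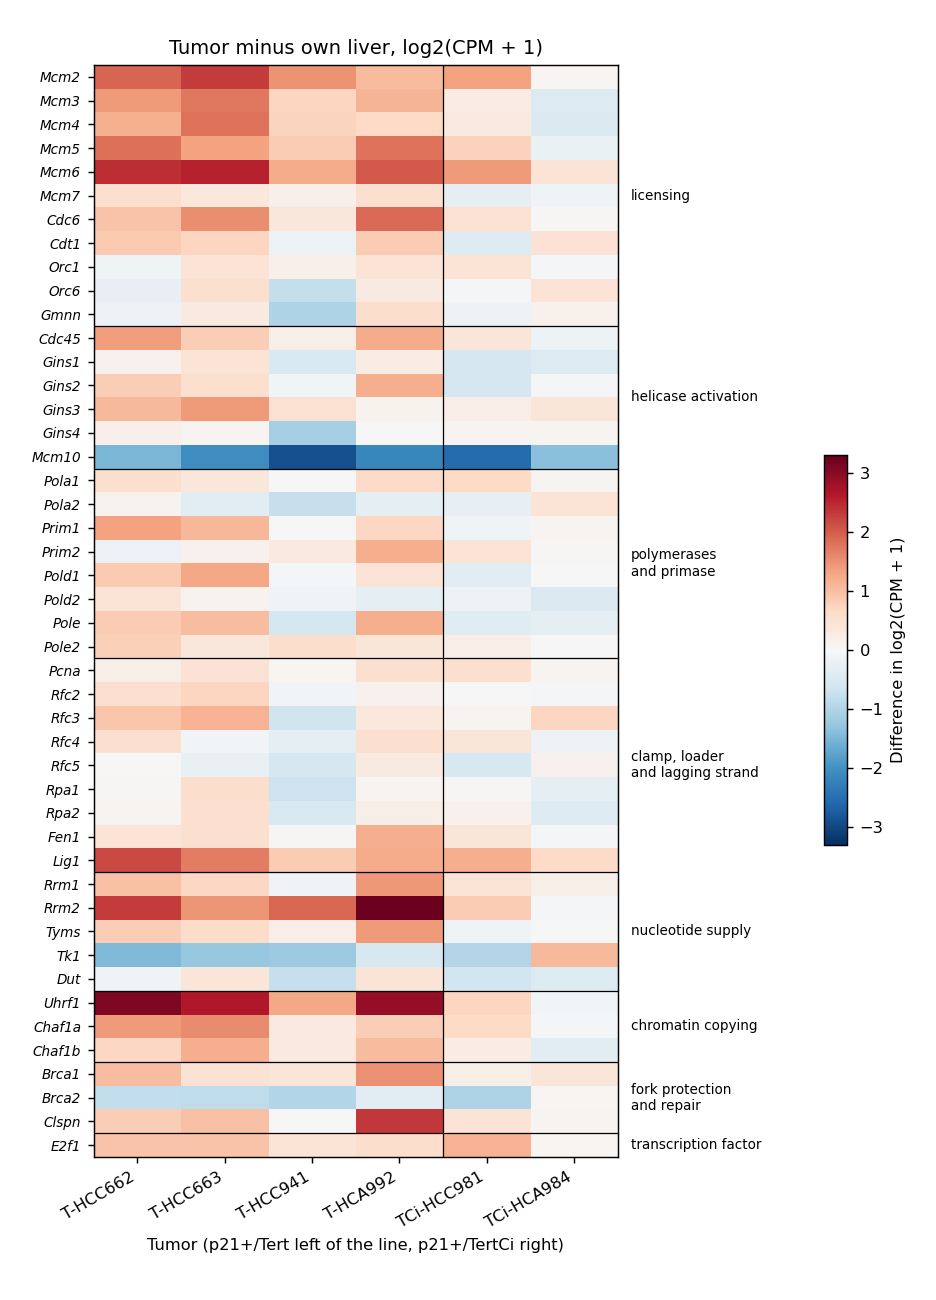
Difference in log2(CPM + 1) between each tumor and its own liver for the 46 genes (rows, grouped by role) in the 4 p21+/Tert tumors (left of the vertical line) and the 2 p21+/TertCi tumors (right). Red is higher in the tumor. T-HCC662, T-HCC663, and T-HCA992 are mostly red, TCi-HCA984 is mostly pale, and the row of Mcm10 is blue in all 6 columns.

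Within the p21+/Tert mice, 6 of 46 genes were higher in the 4 tumors than in the 4 livers (Mcm2, Mcm6, Cdc45, Lig1, Rrm2, and Uhrf1) and none lower, against 4.2% and 2.3% of the 15182 genes tested. The median log2 fold change was 0.75, against 0.04 for all genes. Uhrf1 had 3.68 ± 0.85 SE (adjusted p = 0.0286), Rrm2 2.60 ± 0.49 (adjusted p = 0.0136), Mcm6 2.34 ± 0.41 (adjusted p = 0.0106), and Mcm2 1.75 ± 0.42 (adjusted p = 0.0325). Mcm10 had -2.03 ± 0.57 (adjusted p = 0.0593) and Brca2 -0.88 ± 0.26 (adjusted p = 0.0711), both with an unadjusted p under 0.05. DESeq2 called 12 higher and 2 lower, in a fit that called 13.9% of all genes. With the mouse as a replicate block over 6 pairs, edgeR called 8 higher and 1 lower, and Mcm3, Mcm5, Cdc6, and Mcm10 (adjusted p = 0.0103) were gained while Cdc45 (adjusted p = 0.0908) was lost. With the block over the 5 pairs given by the labels, 3 were higher (Mcm6, Rrm2, and Uhrf1) and Mcm10 was lower. The total of 6 fell to 1 (Mcm6) without the liver of T-HCC662, and to 2 (Mcm6 and Rrm2) without the liver of T-HCC663, that of T-HCC941, or T-HCA992. The counts with a block or with a library left out are given without the share of all genes called in the same fits.

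In the p21+/TertCi mice, 0 of 46 genes were called between the 2 tumors and the 2 livers by edgeR, as were 0% of all genes, and DESeq2 called 0 of the 46. At an unadjusted p under 0.05 edgeR gave 1 of the 46, Mcm10 (log2 -1.78 ± 0.81), against 10.7% of all genes. The median log2 fold change was 0.13, and the intervals were wide: Mcm6 had 1.21 (95% interval -0.03 to 2.44), Lig1 1.20 (-0.06 to 2.46), and Rrm2 0.61 (-0.85 to 2.07). The value of the p21+/Tert mice lay inside these intervals for Mcm6 and Lig1, and above that of Rrm2.

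The difference between the genotypes was tested as an interaction term. No replication gene was called by edgeR or DESeq2, and edgeR called 0% of all genes. By edgeR, 1 replication gene had an unadjusted p under 0.05, against 3.66% of all genes. It was Rrm2 (log2 -1.99 ± 0.82, 95% interval -3.79 to -0.18, edgeR adjusted p = 1). Uhrf1 had -2.92 (-5.92 to 0.07), Mcm6 -1.13 (-2.63 to 0.37), Lig1 -0.49 (-2.02 to 1.04), and Mcm10 0.25 (-1.86 to 2.36). The response of the replication genes was therefore not shown to differ between active and inactive Tert at this number of mice. The driver mutations reported by the study also differ between the genotypes. They lie in Ctnnb1 in T-HCC662 and T-HCC663, in Egfr in T-HCC941, and in Hras in TCi-HCC981. None of these driver genes is mutated in both genotypes here, so the genotypes cannot be compared within a driver gene. The study describes the adenomas T-HCA992 and TCi-HCA984 as free of mutations in β-catenin and Ras signaling. Of the 45 genes, T-HCA992 had 18 at least 2-fold above its own liver and TCi-HCA984 had 1. T-HCC941 and TCi-HCC981 had 4 each. The part of the driver mutation in the genotype values was not tested.

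Between the genotypes within a tissue, no replication gene was called by edgeR, and 0% of all genes were called in livers or in tumors. In livers, 1 gene had an unadjusted p under 0.05, E2f1, lower in p21+/TertCi (log2 -0.92 ± 0.40), against 4.98% of all genes, and DESeq2 called 0. In tumors, 9 genes had an unadjusted p under 0.05 by edgeR, all lower in p21+/TertCi. This was 19.6% of the 46, against 6.98% of all genes lower, and 0% were higher, against 4.56% of all genes. DESeq2 called 3, all lower, in a fit that called 2.45% of all genes. The values in tumors were below 0 for 44 of the 46, with a median log2 fold change of -0.74 against 0.00 for all genes. Rrm2 had -2.06 ± 0.63 (adjusted p = 0.318), Chaf1a -1.43 ± 0.43 (adjusted p = 0.317), and Mcm7 -0.90 ± 0.24 (adjusted p = 0.272). The p21+/TertCi group holds TCi-HCA984, the tumor with the lowest level of most of these genes, and its part in these values was not tested. The driver mutations named above differ between these tumor groups too.

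Other genes of DNA replication, on 6 lists written from general knowledge but with earlier results of these data known, were examined beside the 46. Of the 75, 70 were tested in tumors against livers. Of these, 7 were higher (10%, against 6.77% of all genes) and 1 lower (1.43%, against 3.91%). Their median log2 fold change was 0.13, against 0.01 for all genes. Higher were Pold4 (1.38 ± 0.24 SE, adjusted p = 0.00427), a small subunit of polymerase δ, Atad2 (1.27 ± 0.28), Ccne1 (2.36 ± 0.55), which encodes cyclin E1, Rbl1 (1.72 ± 0.44), Dtl (1.65 ± 0.45), Dbf4 (1.41 ± 0.40), the activator of the kinase Cdc7, and Rrm2b (0.77 ± 0.23), the p53-responsive reductase subunit. Lower was E2f7 (-1.75 ± 0.51), a repressor of E2F targets. Pold4 stood at 20.6 to 37.9 CPM in livers and 53.6 to 142 CPM in tumors, without overlap, and its highest tumor was T-HCC941, in which the median difference of the 45 tested genes was 0.02. Ccne1 was highest in T-HCA992 (15 CPM), T-HCC941 (12 CPM), and TCi-HCC981 (8.63 CPM). It was lower in T-HCC663 (3.11 CPM), TCi-HCA984 (2.78 CPM), and T-HCC662 (1.71 CPM).

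Genes of mitosis, used as a reference for dividing cells, had larger values. Of 15 tested on that list, 13 were higher in tumors (86.7%, against 6.77% of all genes), with a median log2 fold change of 2.80. Mki67, a marker of cycling cells, stood at 1.34, 3.42, 3.03, and 5.9 CPM in the p21+/Tert livers and 10.2 and 0.339 CPM in the p21+/TertCi livers, and at 54.3, 53.5, 29.4, and 49.2 CPM and 17.9 and 3.07 CPM in their tumors. T-HCC662, T-HCC663, and T-HCA992 were highest in Mki67 and in the counts of replication genes above their own liver, and TCi-HCA984 was lowest in both. T-HCC941 stood at 29.4 CPM of Mki67 with 4 replication genes above its liver, as many as TCi-HCC981 at 17.9 CPM. Staining for the Ki67 protein in the study gave another order, minimal in T-HCA992 and TCi-HCA984, strong in T-HCC941, and high in the other tumors. The order by RNA is therefore not one of protein, above all for T-HCA992 and T-HCC941.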

How the data were processed

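Poly(A) RNA was sequenced, and the libraries used here are 6 tumors and 6 livers, set as 1 of each from each of 6 mice. The pair of T-HCC662 carries the limit given above. The study also sequenced tumors that are not among these libraries. The authors aligned reads to mm10 with Subread and deposited raw counts per gene symbol from featureCounts 1.6.4. The annotation release, strand setting, and treatment of reads with several matches are not given in the sources used here, nor is the sequencing run of each library, for which the authors corrected.

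The deposited counts were tested with edgeR 4.0.16 (R 4.3.3, TMM scaling, filterByExpr, quasi-likelihood test, Benjamini-Hochberg adjustment over all genes tested, threshold 0.05). Tumors against livers were fitted on both genotypes together (13822 genes), and the genotype comparisons in a model of 4 groups (15182 genes). Intervals are 95%. DESeq2 1.42.0, mouse as a block, other filters and scalings, and each library left out were alternatives. CPM used TMM scaling over all genes, and differences from the own liver used log2(CPM + 1). The SE was derived from the fold change and the F statistic of the edgeR test, and the intervals from the SE. Both therefore include the spread between libraries. Limits for a count of 0 cover counting error only. Near-identical copies (at least 95% identity over 200 bases) came from minimap2 2.31. The scripts were tested on simulated data.

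Samples were paired by mouse. Deviations from the group means correlated within the mice at 0.0416 to 0.547 (the latter in the 2 p21+/TertCi mice, whose deviations mirror each other). The tumor was also set against the other livers of its genotype, by the median. For T-HCC663 the own liver gave 0.0457, below the others at 0.0737. The own liver was above the others for T-HCC662 (0.19 against -0.0419), T-HCC941 (0.0416 against -0.0311), and T-HCA992 (0.444 against -0.194).

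The members and lists were chosen with earlier results of these data known. The rule for named genes took every member by its fold change and call, levels in each library for the member of smallest and largest p in each role and for Pcna, Mcm2, Rrm2, Tk1, and E2f1, and beyond the set Tert, Cdkn1a, Mki67, and the 5 genes of smallest p on the other replication lists. Levels of Cdc6, Gins4, and Mcm7, and Afmid, Phyh, Optn, Dbf4, Rrm2b, and E2f7, were added after their values were seen.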

Additional observations from a re-analysis of the deposited data

Results flagged for a closer look

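Of 150 groups of 4 to 6 samples examined, 13 held a sample that stood apart from the others, where chance gives about 1 in 20. Rrm2 was 60.3 CPM in T-HCA992, against 15.9 to 21.4 CPM in the other p21+/Tert tumors and 3.58 to 21.4 CPM in all other tumors. Clspn was 5.66 CPM in the same tumor, against 0.702 to 1.45 CPM in the other p21+/Tert tumors and 0.0568 to 1.59 CPM in all other tumors. Chaf1b was 0.682 CPM in TCi-HCA984, against 4 to 5.61 CPM in the other tumors. The summed level of the 46 replication genes was 337 CPM in T-HCC941, against 540 to 563 CPM in the other p21+/Tert tumors, and 4 of the 45 tested genes were at least 2-fold below the own liver there, against 1 to 2 in the other tumors.

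Outside the set, Pold4 was 142 CPM in T-HCC941, against 53.6 to 64.6 CPM in the other p21+/Tert tumors. Atad2 was 8.23 CPM in the liver of TCi-HCC981, against 3.67 to 4.55 CPM in the other livers. Cdkn1a was 28.8 CPM in the liver of T-HCA992, against 1.62 to 4.09 CPM in the other p21+/Tert livers. In the liver of TCi-HCC981 the macrophage markers summed to 1680 CPM, against 140 to 380 CPM in the other livers. B and plasma cell markers summed to 140 CPM in the liver of T-HCA992, against 14.7 to 26.6 CPM in the other p21+/Tert livers and 3.15 to 26.6 CPM in all other livers.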

How the results depend on the processing

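In tumors against livers, the 8 calls among the 45 genes became 12 with DESeq2 (where calls over all genes went from 10.7% to 17.4%), 8 with the mouse as a replicate block over 6 pairs, 4 with the replicate block over the 5 pairs given by the labels, 4 as the mean of both genotypes in the model of 4 groups, and 5 to 12 with 1 library left out. Calls among the other replication genes became 12 with DESeq2, 4 in the model of 4 groups, and 3 to 9 with 1 library left out. Within p21+/Tert mice, the 6 calls became 14 with DESeq2 and 1 to 8 with 1 library left out. Between the tumors of the genotypes, DESeq2 called 3 genes, Mcm7, Rrm2, and Chaf1a. The count at least 2-fold above the own liver became 20 for T-HCC662 with a pseudocount of 0.1 CPM and 20 by library size alone, 7 for T-HCC941 with that pseudocount, and 0 for TCi-HCA984 against the mean of the 6 livers. The sign changed with 1 library left out for Orc6 (log2 fold change -0.08 to 0.16), Pold2 (-0.19 to 0.06), and Rpa1 (-0.16 to 0.11), none of which was called. Among the alternatives, the share of all genes called is given only for DESeq2, so the other shifts are not set against the background. The cause of these shifts was not tested. The replicate block changed no other call among the 46 genes than those given above. Depth limits Pole2, Clspn, Cdc6, Orc1, and Uhrf1, with 0 to 25 reads in livers for the first 4.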
